A study of Mus musculus with 4 samples.

Results

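The genes described here encode the RNA exosome, the nucleases and helicases that work with it, the adaptor complexes that bring RNA to it and the 5′ exonucleases, in LPC-HRas mouse liver cancer cells with and without overexpressed UBXN9. The 34 members were chosen by gene symbol from the known composition of these complexes, among 55487 Ensembl gene identifiers in the count table. No measured value served as a criterion, but earlier results of these data were known when the choice was made. All 34 were found, and all 34 were among the 13230 genes that passed the filter on low counts and were tested. The filter asks for enough counts in any 2 libraries, so it does not ask that a gene be detected in both groups.

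RNA was sequenced from 4 libraries of unstimulated LPC-HRas cells kept in the same medium with serum, 2 of the genotype control (control 1 and control 2) and 2 of the genotype UBXN9-overexpressing (UBXN9 1 and UBXN9 2). The line name carries HRas in both groups; the labels do not give the vector, its promoter, the number of clones or whether the libraries of a group came from separate cultures, so p-values rest on the spread among these 4 libraries alone, and that spread may be technical. UBXN9, the product of Aspscr1, is also known as ASPL or TUG and binds the ATPase VCP through its UBX domain. The title of the series links UBXN9 to a reduced function of the RNA exosome, and the comparison here asks whether the RNAs that encode the exosome machinery differ between the groups; it measures RNA levels and not the activity of the complex.

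The RNA exosome is a barrel of a ring of inactive RNase PH-like proteins and a cap of RNA-binding proteins, through which RNA is threaded to nucleases that degrade it from the 3′ end. In the nucleus the helicase MTR4 (Mtrex) and the NEXT, PAXT and TRAMP adaptors feed it enhancer RNAs, promoter upstream transcripts and processing by-products, and in the cytoplasm the Ski complex feeds it mRNAs, among them those released from stalled ribosomes. The 5′ exonucleases XRN1 and XRN2 degrade RNA from the other end, in the cytoplasm and the nucleus.

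Total estimated counts were 24677770 and 22147475 for control 1 and 2 and 21814969 and 26292686 for UBXN9 1 and 2. Levels are given in CPM after TMM scaling, and differences are log2 fold changes of UBXN9-overexpressing over control cells from edgeR's quasi-likelihood test, called changed at an adjusted p under 0.05 over all genes tested. Aspscr1 checked the labels: it had 92.1 and 115 CPM in the controls and 392 and 380.0 CPM in the UBXN9 libraries, a log2 fold change of 1.90 (SE 0.18, adjusted p = 0.00144). Vcp, the ATPase partner, had 598, 640.1, 731 and 867 CPM (log2 fold change 0.37, adjusted p = 0.308). Of all genes tested 669 rose and 315 fell, and with a trend on transcript length taken out of each library 955 rose and 767 fell. The 8 lymphoid markers were under 10 counts in every library, 6 of 8 hepatocyte markers were too and Alb was at 0, so albumin, the defining hepatocyte product, was not detected in cells labelled as liver cancer. Of 7 biliary and progenitor markers, Spp1 (2198 to 2991 CPM) and Sox9 (168 to 208 CPM) were well expressed, while Prom1 was at 0 and the keratins Krt18 and Krt19 fell. Summed myeloid markers went from 6.68 and 6.81 CPM in the controls to 12.1 and 10.0 CPM, summed endothelial markers from 5.30 and 5.08 to 7.86 and 7.54 CPM, and summed stellate and fibroblast markers from 239 and 217 to 369 and 443 CPM, where Col1a1 and Acta2 rose. Under 10 counts in every library were 5 of 8 myeloid, 4 of 7 endothelial and 1 of 8 stellate and fibroblast markers. Of the myeloid markers Lyz2 rose (29 and 14 against 63 and 82 counts). Csf1r was high in UBXN9 1 alone (12 and 14 against 56 and 8 counts). The part of the shifts in these sums in the results below was not tested. In bulk RNA, fewer cells that express a gene and less of its RNA per cell cannot be told apart.

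Among the 34 members, 33 did not pass the test and 1, Exosc6, was called lower. Over all genes tested 7.44% were called, 5.06% higher and 2.38% lower, and 1 call in 34 members is read against that share. Without Exosc6, whose counts are shared with another gene, the 33 members had a median log2 fold change of -0.01, with 16 above 0 and 17 below, and the median of all genes tested was -0.0056. The signs of Exosc1, Pabpn1 and Wdr61, whose values lay within 0.05 of 0, turned with upper-quartile factors or library size alone. The 95% interval of the difference lay wholly within a 2-fold change in either direction for 29 of the 33 members (87.9%), against 60.2% of all genes tested. The members were also more abundant than most genes, with a median of 37.6 CPM over all libraries against 22.8 CPM. At an unadjusted p under 0.05, 6 members were counted (21.6% of all genes tested), 4 higher and 2 lower (12.3% and 9.25%), and DESeq2 and limma-voom each called 0 members higher and 1 lower (backgrounds 6.13% and 2.97% for DESeq2, 4.97% and 2.42% for limma-voom).

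**Figure D1:**
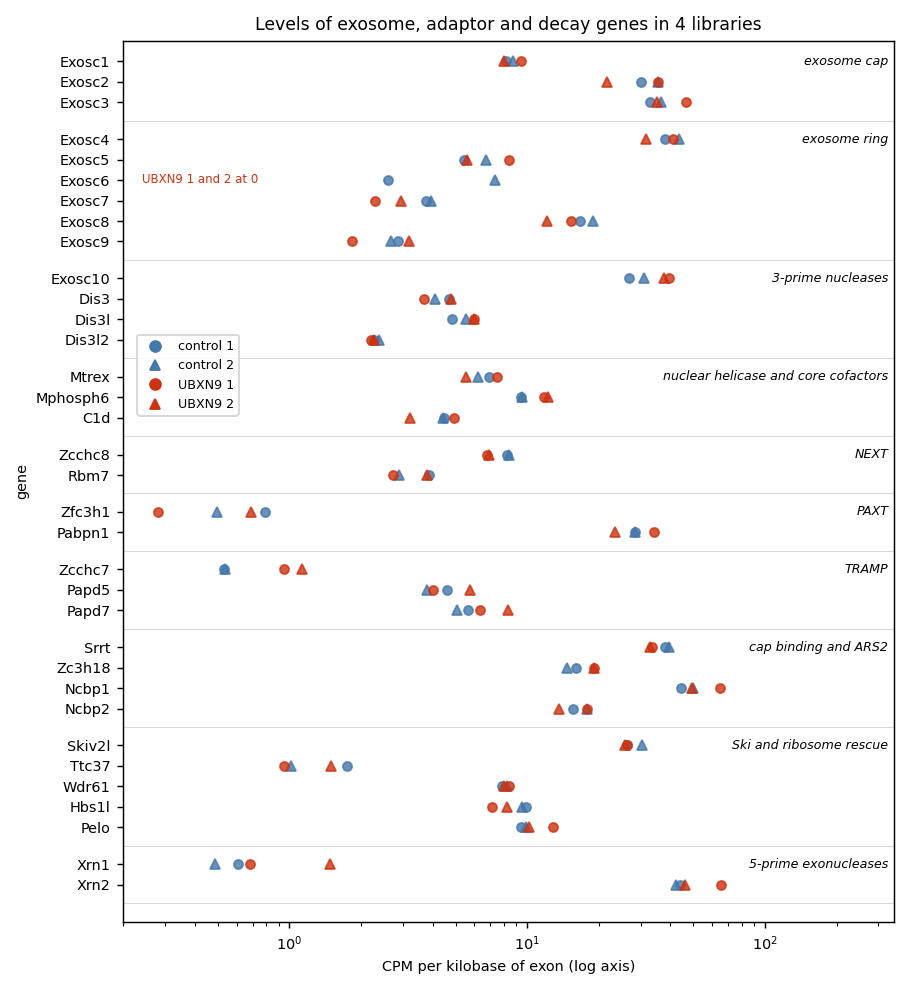
Level of each member in each library, in CPM per kilobase of the union of its exons on a log axis; circles and triangles are libraries 1 and 2, blue is control and red is UBXN9-overexpressing. Members differ from each other far more than libraries do: control means run from 0.533 for Zcchc7 to 47.1 for Ncbp1, while the points of most genes lie close together; Exosc6 has no red points because both UBXN9 libraries are at 0.

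Levels of different members can be compared only per length, and in control cells Ncbp1 exceeded Zcchc7, the ends of the order in CPM per kilobase of exon, by 88.4-fold (48.7-fold when the longest transcript sets the length). Ncbp1, the large subunit of the nuclear cap-binding complex, stood highest at 47.1 ± 3.59 CPM per kilobase (SD, n = 2), and Xrn2, the nuclear 5′ exonuclease, stood next at 43.0 ± 1.03. Both control values of Ncbp1 lay above both of Xrn2, while Xrn2 and Exosc4, which followed at 40.8 ± 4.01, lay within the spread of Exosc4. At the low end Zfc3h1, the zinc-finger scaffold of PAXT, had 0.645 ± 0.209, Xrn1, the cytoplasmic 5′ exonuclease, had 0.549 ± 0.086 and Zcchc7, the RNA-binding subunit of TRAMP, had 0.533 ± 0.00099 CPM per kilobase, and these 3 did not differ beyond their spread either.

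Subunits of a single complex were far from equal in RNA per kilobase. In the ring, which holds 1 copy of each protein, Exosc4 exceeded Exosc9 by 14.7-fold (8.38-fold by longest transcript) and Exosc7 by 10.6-fold. In the Ski complex, Skiv2l exceeded its partner Ttc37 by 20.4-fold. Xrn2 and Xrn1 are separate enzymes and not subunits of a complex, and Xrn2 exceeded Xrn1 by 78.3-fold per kilobase. In PAXT, Pabpn1, the nuclear poly(A)-binding protein, exceeded Zfc3h1 by 44.1-fold. Between the nucleases of the nucleus, Exosc10 exceeded Dis3 by 6.61-fold. In each of these pairs the lower gene had the longer transcript, as with Xrn1 (10256 bases) beside Xrn2 (3434 bases). Differences between libraries of a group also went with transcript length, as given below. The part of transcript length in these ratios was not tested. Annotated exons that are rarely used lower a value per kilobase, and the longest transcript gave another size for each of these ratios, from 5.60-fold for Exosc10 over Dis3 to 66.9-fold for Pabpn1 over Zfc3h1, with no change in which gene was higher.

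No subunit of the RNA-binding cap of the exosome passed the test. Exosc1, the CSL4 subunit, had 33.0 and 35.5 CPM in the controls and 38.3 and 32.4 CPM in the UBXN9 libraries. Exosc2 (RRP4) had 87.3 and 103 CPM in the controls and 102 and 62.3 CPM in the UBXN9 libraries, so UBXN9 2 alone lay low. Exosc3 (RRP40), mutated in a human pontocerebellar hypoplasia, had 43.7, 48.6, 61.3 and 46.5 CPM in the same order, with UBXN9 1 alone high. For all 3 the groups overlapped, and the log2 fold changes were 0.05, -0.21 and 0.22 (adjusted p from 0.568 to 0.927).

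Of the ring subunits, Exosc7 and Exosc8 lay lower in both UBXN9 libraries without passing the test. Exosc7 (RRP42) had 22.6 and 23.7 CPM in the controls and 13.8 and 17.8 CPM in the UBXN9 libraries, a log2 fold change of -0.55 (SE 0.21, 95% interval -1.04 to -0.06, adjusted p = 0.178). Exosc8 (RRP43) had 72.1 and 81.6 CPM against 66.2 and 52.7 CPM, a log2 fold change of -0.37 (SE 0.18, adjusted p = 0.293). In neither gene did the groups overlap. Exosc4 (RRP41) had 73.8 and 84.8 CPM in the controls and 79.6 and 61.3 CPM in the UBXN9 libraries, and Exosc5 (RRP46) had 33.96, 42.0, 52.4 and 34.9 CPM. Exosc9 (RRP45), an autoantigen in scleroderma overlap disease, had 13.5, 12.6, 8.66 and 15.0 CPM. In these 3 the groups overlapped and the UBXN9 libraries lay on opposite sides of at least 1 control. Over the 8 subunits of cap and ring other than Exosc6, the median log2 fold change was -0.15, with 3 above 0 and 5 below.

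Exosc6 (MTR3, ENSMUSG00000109941) had 90 and 214 counts in control 1 and 2 and 0 in both UBXN9 libraries, or 3.43 and 9.71 CPM against 0. It passed the filter on low counts through the controls alone. Taking 3 counts over the UBXN9 group as the floor, the counts assigned to it were at least 97.9-fold lower in the UBXN9 libraries (edgeR adjusted p = 0.00611). That bound holds for the assigned counts and not for the RNA in the cells, for the reason given next. The controls differed, and the bound was 53.4-fold with control 1 alone and 151-fold with control 2 alone. It is a gene of a single exon of 1326 bases on chromosome 8, 111056339 to 111057664, plus strand, and 100% of that exon lies in the last exon of Aars-201, a transcript of the alanyl-tRNA synthetase gene Aars on the same strand. That exon runs from 111055019 to 111057664 and the coding part of Aars-201 ends at 111055201, so every base of Exosc6 is also annotated as 3′ untranslated sequence of Aars. The first coding bases of Exosc6 are shown because a read from them matches both genes; the start codon is in capitals (GRCm38, chr8:111056371-111056400, plus strand), and the same 30 bases stand at position 4457 of the 5750 bases of Aars-201.
Exosc6: ATGccgggagaccatcgccgcatccgcggg

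How the authors' counting divided such reads is not given in the sources used here. The deposited counts include fractions, and how these arose is not given either. Aars itself rose with a log2 fold change of 0.90 (adjusted p = 0.0333) and took nearly all counts of the locus: Exosc6 was 0.606% and 1.43% of the sum of both genes in control 1 and 2. Counted together, Exosc6 and Aars had 567 and 677 CPM in the controls and 1149 and 1148 CPM in the UBXN9 libraries, a log2 fold change of 0.88 (SE 0.19, adjusted p = 0.0362), a 1.85-fold rise. The table therefore gives no level for Exosc6 that is independent of how reads shared with Aars were assigned. Alternatives that test Exosc6 as its own gene reuse the same assigned counts, so they cannot test that assignment. The call for Exosc6 held in 15 of the 15 alternatives that tested it as its own gene, each library left out included; a filter of 5 CPM in 2 libraries removed it.

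Among the 3′ nucleases, Exosc10 lay higher in both UBXN9 libraries. Exosc10 (RRP6), the distributive exonuclease of the nuclear exosome, on chromosome 4, 148558429 to 148582401, had 96.3 and 112 CPM in the controls and 142 and 135 CPM in the UBXN9 libraries. The lowest UBXN9 library was above the highest control, and the log2 fold change of 0.42 (SE 0.16, 95% interval 0.04 to 0.79, adjusted p = 0.183) did not pass. Dis3, the processive exonuclease and endonuclease that gives the nuclear exosome most of its activity, had 36.2 and 31.7 CPM against 28.4 and 36.9 CPM (log2 fold change -0.05, 95% interval -0.52 to 0.41, adjusted p = 0.924). Neither cytoplasmic relative passed the test. Dis3l, the counterpart of Dis3 in the cytoplasm, had 26.4, 30.3, 32.8 and 32.5 CPM. Dis3l2, which acts without the exosome on uridylated RNAs, had 20.2, 21.3, 19.6 and 20.2 CPM, and its groups overlapped.

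The helicase that opens RNA for the nuclear exosome did not pass the test. Mtrex (MTR4) had 44.3 and 39.7 CPM in the controls and 47.9 and 35.5 CPM in the UBXN9 libraries, so the controls lay between the UBXN9 libraries, with a log2 fold change of -0.01 and a 95% interval from -0.48 to 0.46 (adjusted p = 0.983). Mphosph6 (MPP6), which holds MTR4 to the core, had 23.3 and 23.6 CPM against 29.2 and 30.3 CPM, groups that did not overlap (log2 fold change 0.34, SE 0.17, adjusted p = 0.299). C1d (RRP47), the partner of EXOSC10, had 17.9, 17.7, 19.7 and 12.8 CPM, with UBXN9 2 alone low.

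The adaptors that bring nuclear RNA to MTR4 were not called in any complex. Of NEXT, which targets short unprocessed transcripts, the scaffold Zcchc8 had 43.2 and 44.1 CPM in the controls and 35.4 and 36.4 CPM in the UBXN9 libraries (log2 fold change -0.28, SE 0.16, adjusted p = 0.369), without overlap. Rbm7, its RNA-binding partner, had 19.0, 14.3, 13.4 and 18.7 CPM, and its groups overlapped. Of PAXT, which targets longer polyadenylated nuclear RNA, Zfc3h1 had 6.22, 3.90, 2.19 and 5.43 CPM, a log2 fold change of -0.40 with a wide SE of 0.46. Pabpn1 had 86.4 CPM in both controls and 104 and 70.9 CPM in the UBXN9 libraries, which lay on either side of the controls (log2 fold change 0.01, adjusted p = 0.982).

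All 3 TRAMP genes had positive differences, with a median log2 fold change of 0.45. Zcchc7, the zinc-knuckle RNA-binding subunit, on chromosome 4, 44755877 to 44932215, had 5.11 and 5.13 CPM in the controls and 9.16 and 10.9 CPM in the UBXN9 libraries, the smallest p of any member other than Exosc6. Its level was 1.96-fold higher (95% interval 1.32 to 2.90, log2 fold change 0.97, SE 0.24), and its adjusted p of 0.0600 did not pass. Under 17 alternatives the log2 fold change stayed between 0.84 and 1.09, and 6 of them called it (adjusted p from 0.00103 to 0.395). Papd7 (also Tent4a), a poly(A) polymerase that adds mixed tails, had 50.4 and 45.3 CPM against 56.4 and 73.8 CPM (log2 fold change 0.45, SE 0.19, adjusted p = 0.231), and Papd5 (also Tent4b), the polymerase that marks nuclear RNA for decay, had 22.6, 18.7, 19.9 and 28.4 CPM with overlapping groups.

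The proteins that link the cap to the adaptors did not pass the test. Srrt (ARS2), which decides between processing and decay of capped RNA, had 198 and 206 CPM in the controls and 175 and 172 CPM in the UBXN9 libraries, and Zc3h18, which bridges the cap complex to NEXT, had 148 and 135 CPM against 175 CPM in both UBXN9 libraries. In each the groups stood apart, in opposite directions, at log2 fold changes of -0.22 (SE 0.15, adjusted p = 0.466) and 0.30 (SE 0.15, adjusted p = 0.307). Ncbp1 had 151, 168, 219 and 166 CPM, and Ncbp2, the subunit that grips the cap, had 35.9, 41.1, 41.1 and 31.3 CPM. The groups of both cap-binding subunits overlapped.

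In the cytoplasm, no gene of the Ski complex or of ribosome rescue passed the test. Skiv2l, the Ski helicase, had 130.3 and 151 CPM in the controls and 131 and 128 CPM in the UBXN9 libraries; Wdr61, its WD-repeat subunit, had 36.5, 38.3, 39.2 and 37.3 CPM. Their log2 fold changes were -0.11 and 0.03, with SEs of 0.16 for each. Ttc37, the scaffold of the complex, varied more within groups than between them, at 20.7 and 11.9 CPM in the controls and 11.2 and 17.6 CPM in the UBXN9 libraries. Hbs1l, a GTPase of ribosome rescue whose locus also encodes the SKI7-like bridge to the exosome, had 59.7 and 57.4 CPM against 43.0 and 49.5 CPM (log2 fold change -0.34, SE 0.16, adjusted p = 0.290), without overlap. Its partner Pelo, which splits stalled ribosomes, had 15.1 and 15.8 CPM against 20.5 and 16.3 CPM (log2 fold change 0.25, adjusted p = 0.560), and counts from Pelo are uncertain where the same-strand transcript Gm49395, at 0 counts in every library, covers 46.2% of its exon bases.

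The 5′ exonucleases lay above both controls in both UBXN9 libraries, and each rested on a single library. Xrn1, on chromosome 9, 95954760 to 96057803, had 11.3 and 9.07 CPM in the controls, 12.6 CPM in UBXN9 1 and 27.4 CPM in UBXN9 2. Its log2 fold change of 0.97 (SE 0.37, 95% interval 0.11 to 1.84, adjusted p = 0.181) became 0.31 without UBXN9 2 and 1.43 without UBXN9 1. A fit that leaves 1 UBXN9 library takes no variation from that group, so only its effect size is given. Of 17 alternatives 5 called Xrn1, the fit without UBXN9 1 among them. Xrn2 had 174 and 168 CPM in the controls and 261 and 183 CPM in UBXN9 1 and 2, a log2 fold change of 0.38 (SE 0.20, adjusted p = 0.349). It was 0.10 without UBXN9 1 and 0.61 without UBXN9 2. The high library was thus UBXN9 2 for Xrn1 and UBXN9 1 for Xrn2.

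**Figure D2:**
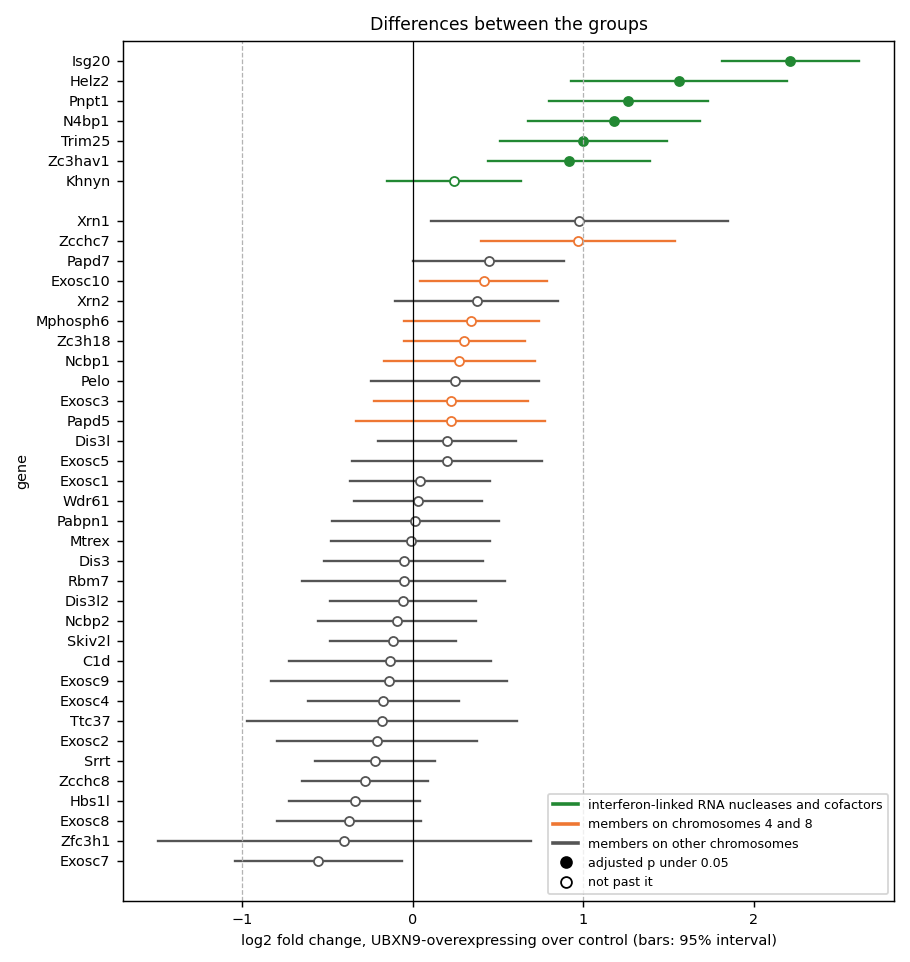
Log2 fold change of UBXN9-overexpressing over control cells with its 95% interval for 33 members (Exosc6 left out) and for 7 interferon-linked RNA nucleases and cofactors; filled points passed an adjusted p under 0.05 and dashed lines mark a 2-fold change. All 33 members have open points, from -0.55 for Exosc7 to 0.97 for Xrn1, and 6 of the 7 interferon-linked genes have filled points, from 0.91 for Zc3hav1 to 2.21 for Isg20.

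The groups stood apart, with both UBXN9 libraries above or both below the 2 controls, for 15 of the 34 members, 9 above and 6 below, while 19 overlapped. Over all genes tested 50.6% stood apart in this sense, 25.0% above and 25.6% below, a share near that of the members. An exact permutation test of 2 libraries against 2 cannot go below a two-sided p of 0.333, so it cannot call any member; the calls here come from the edgeR fit, which shares information on the spread across genes.

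The spread within groups went with transcript length. Between UBXN9 1 and UBXN9 2 the median absolute log2 difference of the 33 members was 0.375, against 0.153 between the controls and 0.219 between the group means; for all genes tested with a length these were 0.292, 0.186 and 0.273. Of 12 members whose longest transcript has at least 4000 bases, 9 were higher in UBXN9 2 than in UBXN9 1, with a median log2 difference of 0.30, and the 21 shorter members had a median of -0.32. Between the controls the order was opposite, with medians of -0.14 for the longer members and 0.06 for the shorter (control 2 minus control 1). Across the 33 members, which share the 4 libraries, Spearman's rho with transcript length was 0.51 for UBXN9 2 minus UBXN9 1, -0.42 for control 2 minus control 1 and 0.06 for the difference between the groups; over 13219 genes it was 0.49, -0.38 and -0.00077. Xrn1, with the longest transcript among the members (10256 bases), Zfc3h1 (6957 bases) and Ttc37 (6976 bases) were lower in control 2 than in control 1 and higher in UBXN9 2 than in UBXN9 1.

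**Figure D3:**
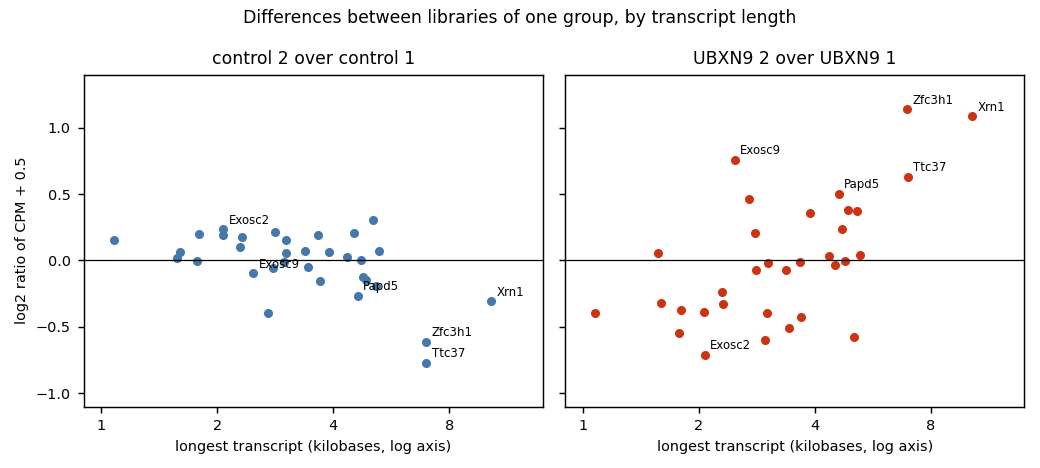
Log2 ratio of CPM + 0.5 between the libraries of a group for 33 members against the length of the longest transcript in kilobases, on a log axis; the left panel shows control 2 over control 1 and the right panel UBXN9 2 over UBXN9 1. Longer members tend to lie below 0 on the left and above 0 on the right, with Spearman's rho of -0.42 and 0.51.

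The wide intervals of Xrn1, Zfc3h1 and Ttc37 stand beside that length trend, and its part in them was not tested. With a smooth trend on transcript length taken out of each library, 2 members were called higher, Zcchc7 and Xrn1 (background 7.22%), and 2 lower, Exosc6 and Exosc7 (background 5.80%). Leaving out UBXN9 1 gave 3 members called higher (background 11.6%) and 3 lower (6.84%), and leaving out UBXN9 2 gave 2 higher (10.9%) and 3 lower (9.78%). Without control 1 there were 0 higher (3.71%) and 1 lower (1.43%), and without control 2 there were 0 higher (2.69%) and 1 lower (0.974%). In 11 of the 33 members the difference between groups exceeded both differences between libraries of a group, which was so for 43.7% of all genes tested.

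On chromosomes 4 and 8, position in the genome went with the sign of the differences. The 806 genes tested on chromosome 4 had a median log2 fold change of 0.27 (1.20-fold) and the 732 on chromosome 8 one of 0.31 (1.24-fold), while the medians of the other 17 autosomes and X, 18 in all, ran from -0.12 to 0.11. The Y chromosome (5 genes tested, median 0.35) and the mitochondrial genome (15 genes, median 0.12) hold few genes and no member, and are not in that range. With any library left out, the medians of chromosomes 4 and 8 stayed between 0.28 and 0.32. Exosc3, Exosc10, Zcchc7 and Ncbp1 lie on chromosome 4, and Mphosph6, Papd5 and Zc3h18 on chromosome 8. All 7 had positive differences, with a median of 0.30, beside 0.29 for all genes tested on these chromosomes, of which 1213 of 1538 were positive. Of the 26 members elsewhere 9 were positive and 17 negative, with a median of -0.07, beside -0.04 for all genes tested elsewhere. Chromosome 5 had the highest median of those 18 chromosomes, 0.11. Its 2 members were negative, Zcchc8 at -0.28 and Srrt at -0.22.

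**Figure D4:**
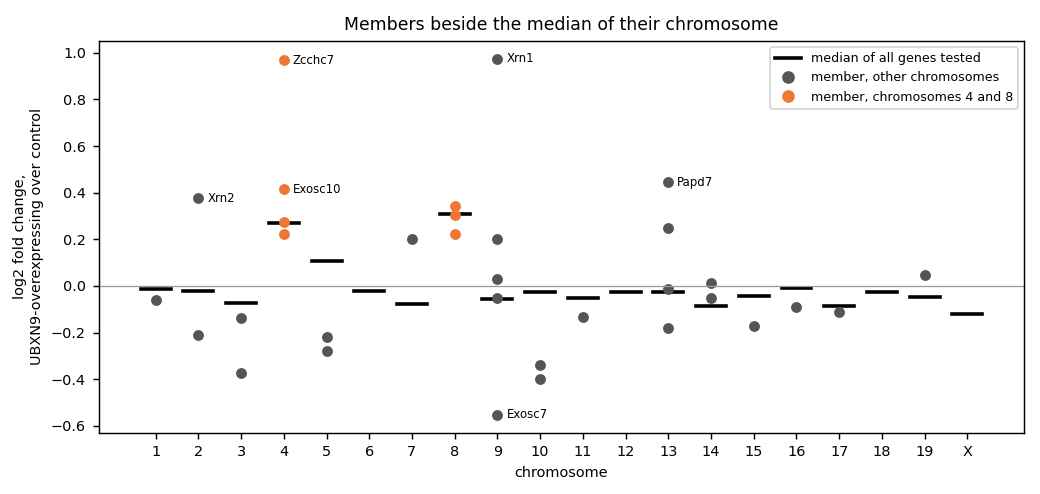
Log2 fold change of 33 members by chromosome, with the median of all genes tested on each chromosome as a black bar; members on chromosomes 4 and 8 are orange. Most orange points lie at the raised bars of their chromosomes, 0.27 and 0.31, and Zcchc7 lies above its bar by 0.70.

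Set against the median of their chromosome, most of these 7 members were near 0. Ncbp1 differed from it by 0.01, Zc3h18 by -0.0064, Mphosph6 by 0.03, Exosc3 by -0.04, Papd5 by -0.09 and Exosc10 by 0.15. Zcchc7 lay 0.70 above the median of chromosome 4. Among members on other chromosomes, Xrn1 lay 1.03 above and Papd7 0.47 above, while Exosc7 differed from the median of chromosome 9 by -0.49. The part of chromosome position in these differences was not tested. The chromosome medians were examined after the data had been seen.

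Genes of other RNA decay pathways give the setting for the members. The 7 interferon-linked RNA nucleases and cofactors, a list chosen with the interferon response of these cells already known, had a median log2 fold change of 1.18, and 6 of 7 rose; without control 2 the count was 2. Isg20, a 3′ exonuclease of the DEDD superfamily like EXOSC10, had 19.3 and 18.5 CPM in the controls and 94.0 and 81.5 CPM in the UBXN9 libraries, a 4.64-fold rise (log2 fold change 2.21, SE 0.17, adjusted p = 0.000635). Helz2, an RNA helicase with an exonuclease domain, rose 2.95-fold (adjusted p = 0.0163). Pnpt1, the mitochondrial polynucleotide phosphorylase that shares the RNase PH fold of the exosome ring, had 41.1 and 30.7 CPM against 80.8 and 91.7 CPM and rose 2.40-fold (adjusted p = 0.0111). N4bp1, an endonuclease that restrains inflammatory signalling, rose 2.26-fold (adjusted p = 0.0202). Trim25 and Zc3hav1 (ZAP, which binds CpG-rich viral RNA) also rose, and Khnyn, a nuclease partner of ZAP, had a log2 fold change of 0.24 (adjusted p = 0.470). The groups stood apart for each of these 7 genes.

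On the other 9 lists, 4 of 113 genes tested rose and 0 fell at an adjusted p under 0.05. Over all genes tested the shares were 5.06% higher and 2.38% lower, and the 4 rises are read against them. Of 18 decapping genes Dcp1b, an activator of decapping, rose with a log2 fold change of 1.17 (2.63 and 2.40 against 5.67 and 5.66 CPM, adjusted p = 0.0491), and the list's median was -0.01. Of 14 genes of nonsense-mediated decay Upf3a, the paralogue of UPF3B, rose with 0.81 (35.1 and 36.2 against 65.6 and 59.7 CPM, adjusted p = 0.0266), and the median was 0.11. Of 10 genes of AU-rich element and stem-loop decay Zfp36 (tristetraprolin) rose with 0.80 (35.8 and 34.5 against 60.0 and 62.8 CPM, adjusted p = 0.0258), and the median was 0.26. Those 3 rises did not hold in every alternative: Dcp1b was called in 10 of 17, Upf3a in 14 and Zfp36 in 13, with adjusted p up to 0.372, 0.255 and 0.314.

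On the remaining lists the gene with the smallest p is given, and it did not pass except on the last list. Of 17 deadenylation genes (median -0.10) Tob1, a recruiter of the CCR4-NOT deadenylase, had 43.2 and 42.8 CPM against 28.8 and 21.2 CPM (log2 fold change -0.78, adjusted p = 0.0646). Of 7 uridylation and tail-extension genes tested (median 0.17) Tut7, a terminal uridylyltransferase, had a difference of 0.69 (adjusted p = 0.0665). By smallest p, Ints3 came first of 14 Integrator genes (median -0.12) with -0.37 (adjusted p = 0.235), Slirp first of 6 genes of mitochondrial RNA decay (median 0.16) with 0.35 (adjusted p = 0.457), and Wdr43 first of 11 further partners of the nuclear exosome (median -0.01) with 0.42 (adjusted p = 0.176). Of 16 small RNA host genes and small RNAs tested (median -0.04) Rn7sk, an RNA without a poly-A tail, was called higher on 44 and 51 counts in the controls and 110 and 701 counts in the UBXN9 libraries (log2 fold change 3.01, adjusted p = 0.0488). Its difference was 1.46 without UBXN9 2 and 3.74 without UBXN9 1, and the library kit selects poly-A RNA. Rmrp and Rpph1 on the same list were also highest in UBXN9 2 and did not pass. In the same order Rmrp had 11, 15, 24 and 239 counts (log2 fold change 3.23, adjusted p = 0.0879). Rpph1 had 21, 12, 32 and 275 counts (3.14, adjusted p = 0.0751). Over the list 7 differences were positive and 9 negative.

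Promoter sequences were searched for elements through which interferon signals act, since 6 interferon-linked genes rose while no member other than Exosc6 was called. RefSeq windows from 250 bases before to 50 after the start site (GRCm38.p6) matched 29 of the 34 members and 7 of the 7 interferon-linked genes. The core of the interferon-stimulated response element, read as a pair of GAAA boxes with 2 bases between them on either strand, was in the windows of 1 of the 29 members, Zc3h18, whose overlapping windows both hold the same match, and of 0 interferon-linked genes; 3.44% of all windows held it. The core of the gamma-activated site, the palindrome TTCNNNGAA, was in the windows of 3 members, Exosc2, Exosc6 and Dis3, and of Isg20; 9.09% of member windows, 11.1% of interferon-linked windows and 8.30% of all windows held it. The stretches of Exosc2 (chr2:31670651-31670700, plus strand) and Isg20 (chr7:78913330-78913379, plus strand) are shown with the core in capitals, because both genes hold the core and differ in RNA: Exosc2 had a log2 fold change of -0.21 and Isg20 one of 2.21.
Exosc2: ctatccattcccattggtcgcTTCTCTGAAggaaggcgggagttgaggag
Isg20: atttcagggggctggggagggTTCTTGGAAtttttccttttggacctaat

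A match is a description of these letters and not of binding. The element spacing searched here is strict, so windows without a match may hold other forms of it.

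Other members share exon bases with neighbouring genes, and their counts are uncertain to that extent because the handling of strand and overlaps is not given in the sources used here. Wdr61 shares 33.9% of its exon bases with Dnaja4 on the other strand, which had at most 1 count in any library. Pabpn1 shares 21.4% with the read-through gene Gm20521 on the same strand, which had 216, 224, 245 and 208 counts. Exosc4 shares 19.8% with Oplah (51 to 81 counts), Exosc2 12.4% with Gm13427 (at most 3 counts) and Exosc9 10.8% with Ccna2, whose counts of 840 to 2181 exceed those of Exosc9 itself. Exosc9 and Ccna2, a cyclin transcribed from the opposite strand, were both lowest in UBXN9 1.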

How the data were processed

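RNA-seq of 4 libraries was used. The authors' deposited table holds unscaled estimated counts per gene, which include fractions. The submitters' processing notes name HTSeq, HISAT2 2.1.0 and the build GRCm38.p6; settings, annotation and strand handling are not given in the sources used here. Of 55728 entries, 241 are loci outside the annotation (0.302% to 0.535% of counts) and stayed out of tests and library sizes. Of 55487 identifiers, 55227 matched GENCODE M21 (GRCm38), the source of symbols, positions, exon unions and transcript lengths.

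Counts were rounded and tested with edgeR 4.0.16 in R 4.3.3 (TMM, filterByExpr, quasi-likelihood F test, two-sided, group term only), with Benjamini-Hochberg adjustment over 13230 genes, and the procedure was tested on simulated data. The alternatives tried were other factors (RLE, upper-quartile, library size alone), no filter, 5 CPM in 2 libraries, DESeq2 1.42.0, limma-voom (limma 3.58.1), a replicate block, a per-library smooth of the deviation on transcript length (span 0.5) as offset, both together, an adjusted p of 0.01 and each library left out; crossed pairing, Exosc6 and Aars counted together, and loci outside the annotation kept were added after the data were seen. When a library is left out, its partner stands alone and takes its variation from the other group.

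The members and lists were chosen with earlier results of these data known. Named genes are all members, Aspscr1 and Vcp, the called genes of each list (up to 4 by smallest p, otherwise the 1 with the smallest p), up to 2 abundant markers per list, and genes whose exons overlap a member. Trim25, Zc3hav1, Khnyn, Rmrp, Rpph1, Lyz2, Csf1r, Col1a1, Acta2, Krt18, Krt19, Alb and Prom1 were named after their values were seen. Some genes of these lists are not reported here. Figures were drawn with matplotlib 3.10.9. The intervals of the log2 fold changes come from the edgeR fit and include its estimate of the spread between libraries. The floor for Exosc6 covers counting error only.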

Additional observations from a re-analysis of the deposited data

How the results depend on the processing

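With 2 libraries a group, the count of calls moved with the choices, and 15 members turned direction under at least 1 of them. Zfc3h1, at -0.40 in the main fit, was among those that turned. Over all genes tested, 669 higher and 315 lower became 1144 and 683 with no filter on low counts, 310 and 88 at an adjusted p of 0.01, and 767 lower with the length offset; leaving out a library gave 373 to 1611 higher and 135 to 1318 lower. Members called higher, 0 in the report, were 2 with no filter, 2 with the length offset, 2 with the replicate block and length offset together, and 0 to 3 with a library left out; members called lower, 1 in the report, were 0 with 5 CPM in 2 libraries, 2 with the length offset, 0 with Exosc6 and Aars counted together, and 1 to 3 with a library left out. Interferon-linked genes called higher, 6 in the report, were 2 with library size alone, 1 at an adjusted p of 0.01 and 2 to 6 with a library left out. Of the other lists, 4 higher became 2 with upper-quartile factors, 1 with library size alone, 12 with no filter, 9 with DESeq2, 2 with limma-voom, 10 with the length offset, 0 at an adjusted p of 0.01 and 3 to 21 with a library left out; 0 lower became 1 with no filter, 1 with DESeq2, 1 with the length offset and 0 to 5 with a library left out. The median of the members without Exosc6 was -0.11 with library size alone, where the median of all genes was -0.09, and 0.0096 to 0.11 with a library left out. The cause of these moves was not tested.

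The labels give the groups the same replicate numbers without saying that a number marks a shared culture or day. Deviations of same-numbered libraries correlated at -0.37 over 13230 genes, and the replicate block gave 640 genes higher and 292 lower, with 0 members higher and 1 lower; with the length offset added the block gave 849 higher, 630 lower, 10 other list genes higher and 2 lower. The crossed pairing gave 1776 and 1361 calls over all genes, 4 and 3 among the members, and 16 and 5 on the other lists.

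Of 576 values of single members under the alternatives, 517 kept direction and side of the threshold, 22 became calls, 0 calls were lost and 37 turned sign. Exosc6 has no value with 5 CPM in 2 libraries or when counted together with Aars. Its call is absent there, and these settings are not among the 576. In all 15 members turned, 12 of them only on leaving out a library. Exosc1 turned to -0.0073 with upper-quartile factors, -0.048 with library size alone, -0.017 with the length offset and -0.018 with block and offset. Wdr61 turned to -0.020, -0.059, -0.028 and -0.028 under the same 4 choices. Pabpn1 turned to -0.040, -0.088, -0.049 and -0.062 under them, to -0.016 with limma-voom, to -0.010 with the replicate block and to -0.011 with the crossed pairing. With a library left out, the ranges of those that turned were -0.077 to 0.16 for Exosc1, -0.61 to 0.11 for Exosc2, -0.37 to 0.0063 for Exosc4, -0.12 to 0.47 for Exosc5, -0.59 to 0.20 for Exosc9, -0.26 to 0.13 for Dis3, -0.24 to 0.19 for Mtrex, -0.47 to 0.15 for C1d, -0.31 to 0.16 for Rbm7, -1.21 to 0.099 for Zfc3h1, -0.28 to 0.26 for Pabpn1, -0.060 to 0.46 for Papd5, -0.30 to 0.093 for Ncbp2, -0.55 to 0.27 for Ttc37 and -0.0085 to 0.069 for Wdr61. Exosc7, Exosc10, Zcchc7, Papd7 and Xrn1 were among the 19 that did not turn.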

Other observations

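Zcchc7 lies on chromosome 4 between Pax5 (44524757 to 44710487), the B-cell transcription factor, and Grhpr (44981395 to 44990734), a glyoxylate reductase. Pax5 had 0 counts in both controls and 49 and 134 counts in UBXN9 1 and 2, and it passed the filter on low counts through the UBXN9 libraries alone. Grhpr, on the other side, had 41.8 and 56.3 CPM in the controls and 49.3 and 36.7 CPM in the UBXN9 libraries (log2 fold change -0.19, adjusted p = 0.699). Zcchc7 itself, with 134 and 113 against 184 and 288 counts, stood between a neighbour counted only in the UBXN9 libraries and a neighbour whose groups overlapped. These neighbours were chosen after the values had been seen.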
